A study of Mus musculus with 8 samples.

Results

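The genes described here make, conjugate and carry bile acids in the liver or belong to the farnesoid X receptor (FXR) feedback that controls their synthesis. They are Cyp7a1, Cyp8b1, Cyp27a1, Cyp7b1, Slc27a5, Baat, Slc10a1, Abcb11, Nr1h4 and Nr0b2. They were taken by symbol, all 10 of the 10 listed symbols were found in every RNA-seq and Ribo-seq file, and they are 10 of the 24079 symbols present in both assays. The question was how betaine, a methyl donor, in the drinking water changed liver mRNA, ribosome-protected fragments (RPFs, the footprints that translating ribosomes leave on mRNA) and their ratio, the translation efficiency (TE), in mice on a high-fat diet. Both groups were male C57BL/6 mice fed from 8 weeks of age on a high-fat diet, whose fat supplied 45% of the energy, and the livers were labelled postnatal week 25. The HF group drank no betaine and the HB group drank 2% (w/v) betaine. Each group had 2 RNA-seq and 2 Ribo-seq libraries, called HF1, HF2, HB1 and HB2 below. The labels describe preparations pooled before library construction, while the study's methods speak of single mice picked by body weight, so it is not settled whether a library is 1 animal or a pool. Here n counts libraries, and every p-value measures only the spread between these libraries. A standard-diet group was not analysed here.

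Bile acids are made from cholesterol in hepatocytes and are the main route by which the body disposes of cholesterol. In the classic pathway Cyp7a1 adds a hydroxyl group to cholesterol and sets the rate, and Cyp8b1 then adds the hydroxyl group that distinguishes cholic acid. In the alternative pathway Cyp27a1 and Cyp7b1 act on the side chain and the ring. The acids are joined to taurine, which in mice is the usual partner, and are then pumped into bile, reabsorbed in the gut and taken up again from portal blood. Bile acids that accumulate in hepatocytes bind FXR, which induces the repressor SHP and so lowers synthesis.

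Per-library values differed in how much sequence lay behind them. The RNA-seq libraries held 11661208 and 11824128 assigned reads in HF1 and HF2 and 22543473 and 18082687 in HB1 and HB2, as recovered from the deposited values, and each member had 380 to 21596 reads. The Ribo-seq libraries were far smaller, with 387980, 1056546, 257086 and 141890 reads in HF1, HF2, HB1 and HB2, and the median member had 43, 155.5, 22.5 and 17.5 reads. Both HB Ribo-seq libraries were thus shallower than both HF libraries, and depth and group cannot be told apart. Across genes, log2(RPKM + 1) correlated between HB1 and HB2 with r = 0.97 in mRNA and r = 0.75 in RPFs, and between HF1 and HF2 with r = 0.98 and r = 0.90. Genes are not independent replicates. RPKM scales reads by transcript length and library total, so mRNA levels of different genes can be set side by side. For footprints the length behind the deposited RPKM holds untranslated sequence too, and the coding part of it ran from 36.2% for Cyp7a1 to 88.7% for Slc27a5. RPF and TE levels are therefore compared between groups for a gene, and between genes only per coding length. Putting them on coding length assumes that all counted footprints lay in coding sequence. The study reported a sizeable part of its footprints outside coding sequence, and a larger coding share with betaine than without. How this bears on the RPF and TE values was not tested. Fold changes are HB minus HF on the log2(RPKM + 1) scale from limma fits over all genes whose mean RPKM reached 1, which understates changes of low genes. Scaling mattered for direction. Over all 10687 tested mRNAs the median log2 change was -0.19 and moved to 0.08 when libraries were set to a common median. In RPFs it was -0.43 over 11190 genes, -1.16 with a common sum and -0.10 with a common median.

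The liver markers were those of hepatocytes in every library. The 6 hepatocyte markers (Alb, Apoa1, Ttr, Apoh, Cps1 and Fgb) summed to 43182 to 45026 RPKM in the HF RNA-seq libraries and to 48190 to 50191 RPKM in the HB libraries. The 6 pericentral hepatocyte markers, genes of the zone around the central vein where Cyp7a1 is typically highest, summed to 3324 to 3479 RPKM in HF mRNA and 5675 to 5812 RPKM in HB mRNA. Most of that difference was Cyp2e1 (mean 2375 RPKM in HF and 4493 RPKM in HB), while Cyp1a2 (329 and 316 RPKM) and Slc1a2 (98.2 and 85.2 RPKM) had the lower mean in HB. In RPFs the same sum was lower in HB, 3861 to 4142 RPKM against 4250 to 5514 RPKM in HF. The periportal list overlapped between groups in mRNA, at 3121 to 4241 RPKM in HF and 3189 to 3650 RPKM in HB. The cholangiocyte list was low throughout, at 8.58 to 9.91 RPKM in HF and 9.95 to 13.2 RPKM in HB, and its markers Krt7 and Epcam were at 0 in all 4 Ribo-seq libraries. Macrophage markers summed to 92.5 to 97.0 RPKM in HF and 98.8 to 115 RPKM in HB. The largest, Clec4f, fell (mean 68.5 and 49.2 RPKM), while Cd5l (15.1 and 37.0 RPKM), Vsig4 (6.65 and 13.9 RPKM) and Marco (1.33 and 3.38 RPKM) rose, each without overlap. The stellate (11.6 to 13.5 and 13.0 to 13.9 RPKM) and endothelial sums (59.5 to 67.6 and 55.9 to 64.8 RPKM) overlapped. Of the 6 endothelial markers, 4 were lower in HB without overlap and 0 higher, beside 43.3% and 24.8% of all tested genes. In RPFs 3 more sums were lower in HB without overlap, at 1381 to 1599 RPKM against 1946 to 1975 RPKM in HF for the periportal, 19.9 to 32.6 against 41.1 to 64.4 RPKM for the stellate and 58.9 to 114.0 against 114.1 to 147 RPKM for the endothelial list. The part of these shifts in the results that follow was not tested, and in whole liver a change in the number of cells of a type and in the RNA per cell cannot be told apart.

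At the mRNA level the members did not share 1 direction. The uptake transporter Slc10a1 and the sterol 12-alpha-hydroxylase Cyp8b1 rose in the HB group, by 1.76 and 1.81 on the log2 scale, and the FXR gene Nr1h4 and the SHP gene Nr0b2 fell by 1.84 and 1.39. At a log2 fold change beyond 1 and p under 0.001, the thresholds of the study for mRNA, 1 member was called higher (Slc10a1) and 1 lower (Nr1h4). The same rule called 2.3% of all 10687 tested genes higher and 6.56% lower (246 and 701 genes, but 540 and 291 with a common median). With an adjusted p under 0.05 in place of the raw p, 2 members were higher (Slc10a1 and Cyp8b1) and 2 lower (Nr1h4 and Nr0b2), where the shares of all tested genes were 5.01% and 12.7%. The libraries of the groups did not overlap for 4 members with higher HB values (Cyp8b1, Cyp7b1, Slc27a5 and Slc10a1) and 4 with lower ones (Cyp27a1, Baat, Nr1h4 and Nr0b2). Over all tested genes that was so for 24.8% and 43.3%, so such separation was common. The median log2 fold change of the members was -0.32. Without the filter on low genes 1 member (Nr1h4) passed at p under 0.001 and 0 at the adjusted threshold. With 2 libraries a group the exact permutation test of a single gene cannot go below p = 0.333 (two-sided), so the calls rest on the limma fit, which shares the spread across genes.

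The promoters of the 4 members called at the adjusted threshold are shown because these genes moved in opposite directions, Slc10a1 and Cyp8b1 higher and Nr1h4 and Nr0b2 lower. The windows run from 250 bases before to 50 bases after an annotated transcription start, 5′ to 3′ on the gene's strand, from RefSeq on GRCm38.p6, and 6 members had 7 such windows. Cyp8b1 is at chr9:121916256-121916555 (minus strand), Nr0b2 at chr4:133553126-133553425 (plus strand) and Nr1h4 at chr10:89506609-89506908 (minus strand), the last at a start inside the annotated gene. Slc10a1 has 1 window at its outermost start, chr12:80968656-80968955 (minus strand), and 1 at chr12:80968030-80968329 inside the gene. Capitals mark AGGTCA, the half-site to which many nuclear receptors bind, on either strand (TGACCT where it lies on the other strand).
Slc10a1, outermost start: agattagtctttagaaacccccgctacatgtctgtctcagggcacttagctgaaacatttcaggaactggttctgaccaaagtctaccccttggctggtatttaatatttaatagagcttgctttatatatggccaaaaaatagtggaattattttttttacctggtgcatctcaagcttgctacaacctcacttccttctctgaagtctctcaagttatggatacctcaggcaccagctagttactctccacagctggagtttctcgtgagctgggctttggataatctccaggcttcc
Slc10a1, inner start: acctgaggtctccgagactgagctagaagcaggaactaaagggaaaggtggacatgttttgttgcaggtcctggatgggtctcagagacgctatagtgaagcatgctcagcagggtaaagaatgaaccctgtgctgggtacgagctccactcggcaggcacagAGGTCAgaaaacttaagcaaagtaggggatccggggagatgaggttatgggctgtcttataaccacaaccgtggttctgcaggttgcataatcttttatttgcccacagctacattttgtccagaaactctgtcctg
Cyp8b1: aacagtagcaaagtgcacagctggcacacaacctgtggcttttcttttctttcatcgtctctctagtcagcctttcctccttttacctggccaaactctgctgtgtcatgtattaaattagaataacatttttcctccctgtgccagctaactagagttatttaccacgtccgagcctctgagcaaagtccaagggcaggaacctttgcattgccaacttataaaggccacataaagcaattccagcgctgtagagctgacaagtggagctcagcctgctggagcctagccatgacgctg
Nr1h4: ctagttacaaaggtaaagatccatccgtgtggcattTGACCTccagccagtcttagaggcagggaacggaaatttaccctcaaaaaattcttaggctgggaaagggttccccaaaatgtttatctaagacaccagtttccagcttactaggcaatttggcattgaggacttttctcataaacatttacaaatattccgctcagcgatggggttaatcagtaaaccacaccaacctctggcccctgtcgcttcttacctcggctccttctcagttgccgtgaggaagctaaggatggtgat
Nr0b2: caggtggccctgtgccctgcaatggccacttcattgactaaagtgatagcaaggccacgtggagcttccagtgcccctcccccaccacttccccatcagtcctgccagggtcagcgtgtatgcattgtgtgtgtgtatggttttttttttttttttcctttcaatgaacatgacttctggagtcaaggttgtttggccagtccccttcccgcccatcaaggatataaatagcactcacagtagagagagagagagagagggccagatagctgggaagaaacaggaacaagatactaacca
The half-site was found once in the inner Slc10a1 window, 87 bases before the start, and once in the Nr1h4 window, 214 bases before the start on the other strand. It was not found in the windows of Cyp8b1, Nr0b2 or the outermost Slc10a1 start. Of the remaining windows, that of Abcb11 (chr2:69342567-69342866, minus strand) held it 56 bases before the start on the other strand and that of Cyp27a1 (chr1:74713285-74713584, plus strand) did not hold it. Of all 32851 windows 16.3% held AGGTCA, so a match in a window is common. The longer CAAGGTCA, the site of NR5A2, which drives Cyp7a1 and Cyp8b1, was in 1.56% of all windows. The inverted repeat of the half-site with 1 base between the copies, which binds FXR with its partner RXR, was in 0.00913% and the direct repeat with 1 base between them in 0.0396%. These last 3, searched on both strands with exact letters, were in none of the 7 windows, and all 3 contain the half-site. Cyp7a1, Cyp7b1, Baat and Slc27a5 had no window in the table.

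**Figure D1:**
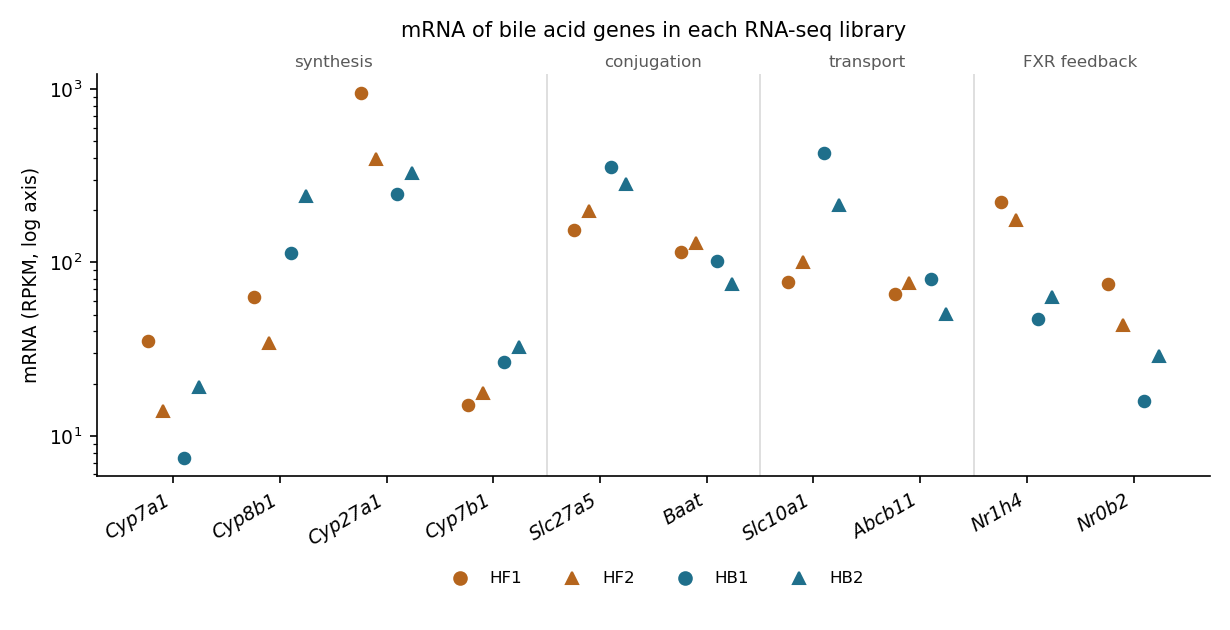
mRNA level (RPKM, log axis) of the 10 members in each of the 4 RNA-seq libraries, ordered by role, with HF libraries in orange, HB libraries in blue, circles for replicate 1 and triangles for replicate 2. Slc10a1 and Cyp8b1 lie higher in both HB libraries, Nr1h4 and Nr0b2 lie lower in both, and the Cyp7a1 and Abcb11 libraries of the groups interleave.

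In the classic pathway Cyp8b1 rose and the change of Cyp7a1 did not pass. Cyp7a1 (chr4:6265612-6275633, minus strand, GRCm38), the rate-setting cholesterol 7-alpha-hydroxylase, had mRNA levels of 35.1 and 13.9 RPKM in HF1 and HF2 and of 7.46 and 19.2 RPKM in HB1 and HB2. The groups overlapped and spread by 2.53-fold in HF and 2.58-fold in HB between their own libraries, and the log2 fold change of -0.82 (95% interval -1.88 to 0.23, limma adjusted p = 0.217) did not pass. It was -0.18 without HF1 and -0.20 without HB1, but -1.47 without HF2 and -1.45 without HB2. Cyp8b1 (chr9:121914356-121916305, minus strand), which adds the hydroxyl group of cholic acid, had 63.1 and 34.3 RPKM in HF and 113 and 243 RPKM in HB. Both HB libraries lay above both HF libraries, and the means were 48.7 ± 20.3 and 178 ± 91.7 RPKM (SD, n = 2). The log2 fold change was 1.81 (SE 0.40, 95% interval 0.92 to 2.71), with a limma p of 0.00118 and an adjusted p of 0.0122. Within a library the ratio of Cyp8b1 to Cyp7a1 mRNA was 1.80 and 2.48 in HF and 15.2 and 12.6 in HB, without overlap.

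The 2 enzymes of the alternative pathway had changes of opposite sign. Cyp27a1 (chr1:74713574-74737892, plus strand), the mitochondrial sterol 27-hydroxylase, was the most abundant member in HF mRNA, with 957 and 398 RPKM in HF against 248 and 327 RPKM in HB. HF1 stood far above HF2, the groups did not overlap, and the log2 fold change was -1.11 (95% interval -2.01 to -0.22, limma adjusted p = 0.0651), past the fold threshold but missing both p thresholds. It was -0.48 without HF1 and -0.91 without HB1, but -1.74 without HF2 and -1.31 without HB2. The adjusted rule was passed with a common sum (-1.16) and with the replicate block (limma adjusted p = 0.00619). The block fit rests almost wholly on the spread shared across genes. Cyp7b1 (chr3:18071950-18243338, minus strand), the oxysterol 7-alpha-hydroxylase that follows it, had 15.0 and 17.8 RPKM in HF and 26.6 and 32.6 RPKM in HB. Its libraries agreed closely within each group, and its log2 fold change of 0.81 (95% interval 0.25 to 1.38, limma adjusted p = 0.0405) was under the fold threshold of 1. With a common median it was 1.08 and passed the adjusted rule. Per unit of Cyp27a1 mRNA there were 0.0157 and 0.0447 units of Cyp7b1 mRNA in HF and 0.107 and 0.0996 in HB.

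Neither conjugation enzyme passed the fold threshold in mRNA with all libraries at the deposited scale. Slc27a5 (chr7:12988346-12998192, minus strand), the bile acid CoA ligase that activates bile acids before conjugation, had 154 and 198 RPKM of mRNA in HF and 355 and 286 RPKM in HB. Both HB libraries were above both HF libraries, and the log2 fold change was 0.86 (95% interval 0.24 to 1.49, limma adjusted p = 0.0449), under the fold threshold. It passed the adjusted rule with a common median (1.14), and it was 1.02 without HB2. Baat (chr4:49489422-49506557, minus strand), which transfers the activated acid to taurine or glycine, had 115 and 129 RPKM in HF and 102 and 74.9 RPKM in HB. The groups did not overlap, but the log2 fold change of -0.48 (95% interval -1.08 to 0.12, limma adjusted p = 0.209) did not pass. The ratio of Slc27a5 to Baat mRNA was 1.34 and 1.53 in HF and 3.50 and 3.81 in HB, without overlap.

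Of the transporters the uptake carrier rose and the export pump did not pass in mRNA. Slc10a1 (chr12:80953183-80968705, minus strand), the sodium-dependent carrier NTCP that takes conjugated bile acids up from blood, had 77.5 and 101 RPKM of mRNA in HF and 427 and 214 RPKM in HB. Both HB libraries lay above both HF libraries, and the means were 89.1 ± 16.4 and 320.1 ± 150 RPKM (SD, n = 2). Its log2 fold change of 1.76 (SE 0.35, 95% interval 0.98 to 2.54) had a limma p of 0.000538 and an adjusted p of 0.00883. Under removal of any 1 library it ran from 1.26 to 2.26. Without the filter on low genes its p was 0.00495 and its call was lost. Abcb11 (chr2:69238282-69342616, minus strand), the bile salt export pump of the canalicular membrane, had 65.9 and 76.6 RPKM in HF and 80.5 and 50.2 RPKM in HB. The HB values lay on either side of the HF values, and the log2 fold change of -0.16 (95% interval -0.81 to 0.49, limma adjusted p = 0.712) changed sign to 0.11 with a common median. The ratio of Slc10a1 to Abcb11 mRNA was 1.18 and 1.31 in HF and 5.30 and 4.26 in HB.

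Both genes of the FXR feedback fell in mRNA. Nr1h4 (chr10:89454234-89533585, minus strand), which encodes the bile acid receptor FXR, had 224 and 176 RPKM in HF and 47.2 and 63.6 RPKM in HB. The HB libraries lay well below both HF libraries, with means of 200.2 ± 33.9 and 55.4 ± 11.6 RPKM (SD, n = 2). The log2 fold change of -1.84 (SE 0.28, 95% interval -2.46 to -1.22) had a limma p of 6.46e-05 and an adjusted p of 0.00526. With each library left out it lay between -2.05 and -1.63. Nr0b2 (chr4:133553376-133556536, plus strand), which encodes SHP, the repressor that FXR induces, had 75.3 and 43.7 RPKM in HF and 15.8 and 28.8 RPKM in HB. Its log2 fold change was -1.39 (95% interval -2.17 to -0.60, limma adjusted p = 0.0198), but the adjusted p was 0.118 without HF1 and 0.0532 without HB1, in a range of 0.000634 to 0.118 over its alternatives, and 0.0501 with a common median. Unlike the other pairs, the ratio of Nr0b2 to Nr1h4 mRNA overlapped between groups, at 0.336 and 0.248 in HF and 0.335 and 0.453 in HB. The 5 ratios within libraries were chosen after the values were seen and are given without a test.

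**Figure D2:**
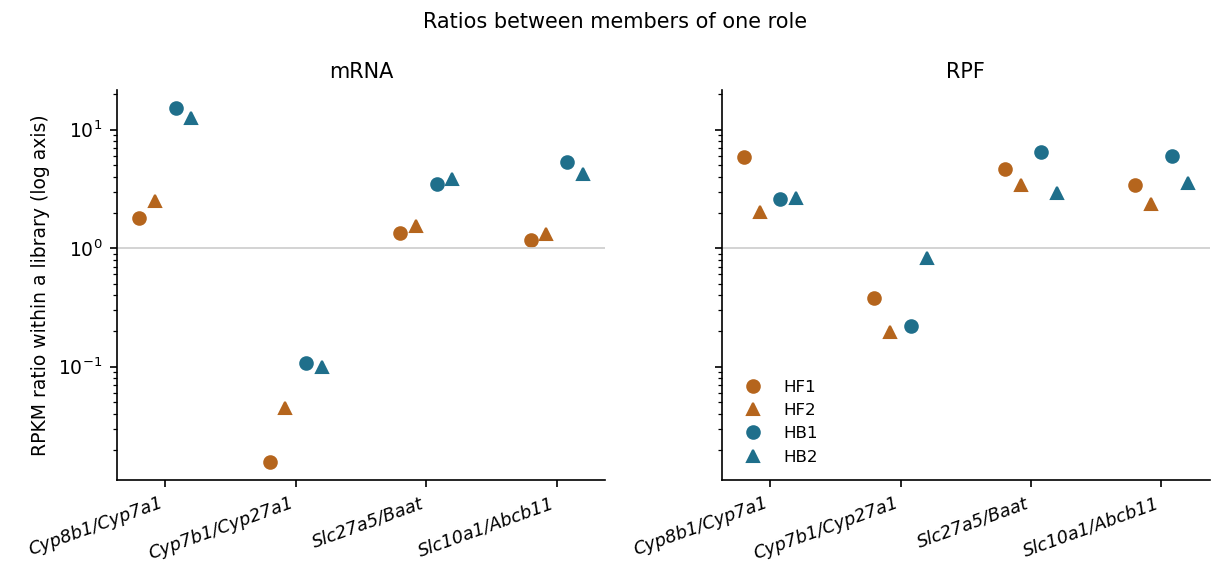
Ratio of the RPKM values of 2 members of one role within each library (log axis), for mRNA on the left and RPFs on the right, with HF libraries in orange and HB libraries in blue. In mRNA all 4 ratios drawn lie higher in both HB libraries, and in RPFs only Slc10a1/Abcb11 does not overlap between groups. The pairs were chosen after the values were seen, each with the member of the higher mRNA change as numerator. Nr0b2/Nr1h4, which overlapped in mRNA, is not drawn.

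The order of mRNA levels changed between the groups. In HF mRNA Cyp27a1 (677 ± 395 RPKM, SD, n = 2) was followed by Nr1h4, Slc27a5, Baat, Slc10a1, Abcb11, Nr0b2, Cyp8b1, Cyp7a1 and Cyp7b1. Neighbours whose libraries overlapped in that order were Nr1h4 and Slc27a5, Abcb11 and Nr0b2, Nr0b2 and Cyp8b1, Cyp8b1 and Cyp7a1, and Cyp7a1 and Cyp7b1. In HB mRNA Slc27a5 (320.5 ± 49.4 RPKM) and Slc10a1 (320.1 RPKM) overlapped each other and overlapped with Cyp27a1 (288 ± 55.6 RPKM), and Cyp8b1, Baat, Abcb11, Nr1h4, Cyp7b1, Nr0b2 and Cyp7a1 (13.3 ± 8.31 RPKM) followed. There Cyp27a1 and Cyp8b1, Cyp8b1 and Baat, and Nr1h4 and Cyp7b1 did not overlap, and the other neighbours did. Slc10a1 was at rank 5 in HF and at rank 2 in HB, and Nr1h4 at ranks 2 and 7.

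No member that passed in mRNA passed in RPFs. At a log2 fold change beyond 1 and p under 0.05, the thresholds of the study for the translatome, 0 members were called higher and 1, Abcb11, was called lower. The same rule called 1.58% of 11190 tested genes higher and 7.86% lower. The groups did not overlap for 0 members with higher HB values and for 3 with lower ones (Cyp8b1, Slc10a1 and Abcb11), against 9.07% and 33.2% of all tested genes. The members had a median log2 fold change of -0.19, beside -0.43 over all genes. At an adjusted p under 0.05 limma called 0 of the 10 members and 0 genes in all, with 1 member and 1122 genes at an unadjusted p under 0.05, and voom on the recovered reads called 0 members and 82 genes. The split of all calls was 177 higher and 879 lower, but 41 and 2659 with a common sum and 349 and 421 with a common median, so directions of small RPF changes depended on the scaling.

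**Figure D3:**
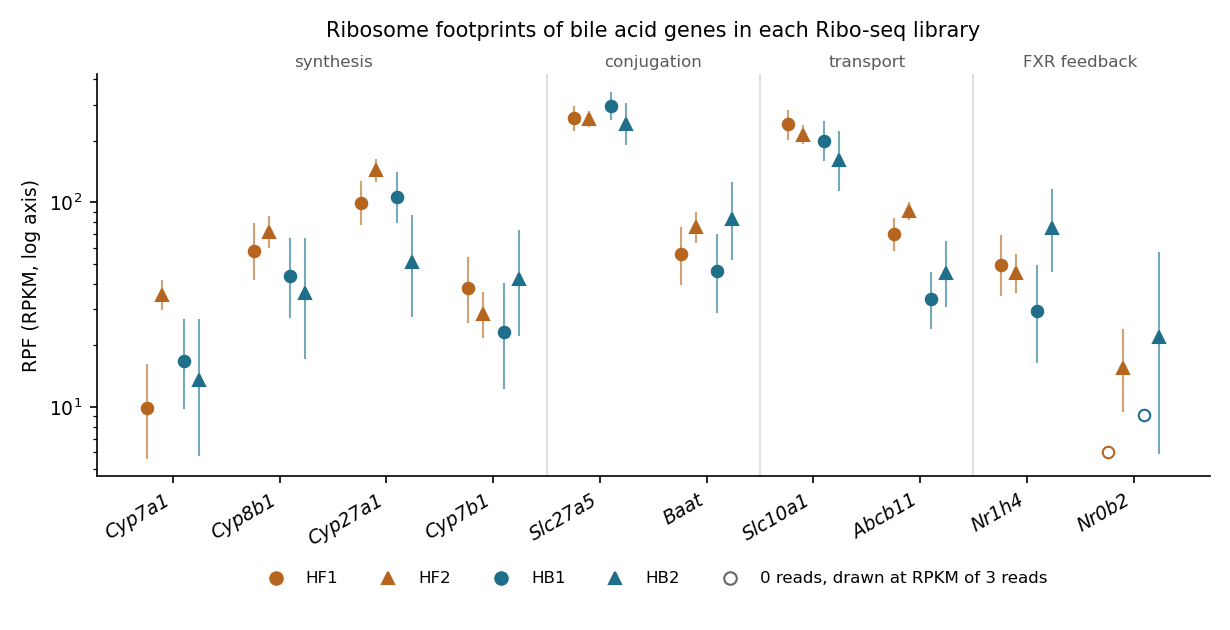
RPF level (RPKM, log axis) of the 10 members in each of the 4 Ribo-seq libraries, ordered by role, with exact 95% Poisson intervals of the read counts as vertical lines and open circles where a library had 0 reads, drawn at the RPKM of 3 reads. For Abcb11 the intervals of HF2 and both HB libraries are apart while those of HF1 and HB2 overlap.

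Abcb11, the export pump, had RPF levels of 70.0 and 90.6 RPKM in HF and 33.7 and 45.4 RPKM in HB, from 135, 476, 43 and 32 reads. Both HB libraries lay below both HF libraries, and the log2 fold change was -1.01 (SE 0.33, 95% interval -1.86 to -0.15), with a limma p of 0.0291 and an adjusted p of 0.493. The call was lost without HF1 (-1.19), without HF2 (-0.82), without HB1 (-0.80), with a common median (-0.68) and without the intensity trend (p of 0.0864), and it was kept without HB2 (-1.22). The exact 95% counting intervals of HF1 (58.7 to 82.9 RPKM) and HB2 (31.0 to 64.1 RPKM) overlapped. Intervals cover counting error only.

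The members that rose in mRNA, Slc10a1 and Cyp8b1, had lower RPF values in both HB libraries. Slc10a1 had 240.5 and 215 RPKM of RPFs in HF and 200.4 and 161 RPKM in HB, from 163, 396, 90 and 40 reads. Both HB values were below both HF values, and the log2 fold change was -0.34 (95% interval -1.03 to 0.36, limma adjusted p = 0.663). That interval ends below the lower bound of 0.98 found for its mRNA. Cyp8b1 had 58.2 and 71.8 RPKM in HF and 43.9 and 36.1 RPKM in HB, from 44, 148, 22 and 10 reads. Again the HB libraries were the lower ones, and the log2 fold change of -0.69 (95% interval -1.49 to 0.12, limma adjusted p = 0.546) did not pass. With a common sum Slc10a1 (-1.21) and Cyp8b1 (-1.54) would both be called lower. With a common median their changes were -0.01 and -0.36, so the size of the drop depended on the scaling. Slc27a5 and Cyp7b1, under the fold threshold in mRNA, overlapped between groups in RPFs. Slc27a5, the bile acid CoA ligase and the member with most footprint reads, had 258 and 255 RPKM in HF and 297 and 242 RPKM in HB, and the log2 fold change of 0.06 (95% interval -0.61 to 0.74) turned to -0.81 with a common sum. Cyp7b1 had 38.1 and 28.4 RPKM in HF and 23.3 and 42.3 RPKM in HB, with both HF values between the HB values, and the log2 fold change of -0.06 (95% interval -1.17 to 1.05) turned to 0.26 with a common median.

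For the members that fell in mRNA no RPF difference could be read at this depth. Nr1h4 had 49.6 and 45.1 RPKM in HF and 29.6 and 75.0 RPKM in HB, from 38, 94, 15 and 21 reads. The HB libraries lay on both sides of the HF libraries, their exact 95% counting intervals (16.6 to 48.8 and 46.4 to 115 RPKM) overlapped only between 46.4 and 48.8 RPKM, and the log2 fold change was -0.0032 (95% interval -1.33 to 1.32, limma adjusted p = 0.999), or 0.32 with a common median. Nr0b2 was near the detection limit, with 0 reads in HF1 and HB1, 21 reads (15.5 RPKM) in HF2 and 4 reads (22.0 RPKM) in HB2. Taking 3 reads as the limit that a count of 0 allows, this is 6.03 RPKM in HF1 and 9.10 RPKM in HB1, so no fold change of Nr0b2 footprints is given and a difference was not detectable at this depth.

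For the remaining members the RPF values of the groups overlapped. Cyp7a1 had 9.88 and 35.4 RPKM in HF and 16.8 and 13.5 RPKM in HB, from 16, 156, 18 and 8 reads, and the HB libraries fell between the HF libraries. Its log2 fold change of -0.31 (95% interval -2.06 to 1.44) turned to 0.02 with a common median. Cyp27a1 had 99.8 and 144 RPKM in HF and 106 and 51.0 RPKM in HB, with the low value in HB2 resting on 14 reads. Its log2 fold change of -0.69 (95% interval -1.87 to 0.49) ran from -1.22 without HB1 to -0.17 without HB2. Baat had 55.6 and 75.4 RPKM in HF and 46.0 and 83.3 RPKM in HB, so its HF values lay between its HB values, and its log2 fold change of -0.06 (95% interval -1.12 to 0.99) turned to 0.26 with a common median. RPF levels were also put on coding length, as if all footprints lay in coding sequence. Slc10a1 (366 ± 29.5 RPKM, SD, n = 2) and Slc27a5 (289 ± 2.11 RPKM) then had the highest means in HF and did not overlap. In HB Slc27a5 (304 ± 44.0 RPKM) and Slc10a1 (291 ± 44.4 RPKM) overlapped, and in both groups they stood above the other 8. On the deposited lengths Slc27a5 came before Slc10a1 in HF as well (256 and 228 RPKM), so that order depends on the length used. Nr0b2 had the lowest mean in both groups on either length.

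**Figure D4:**
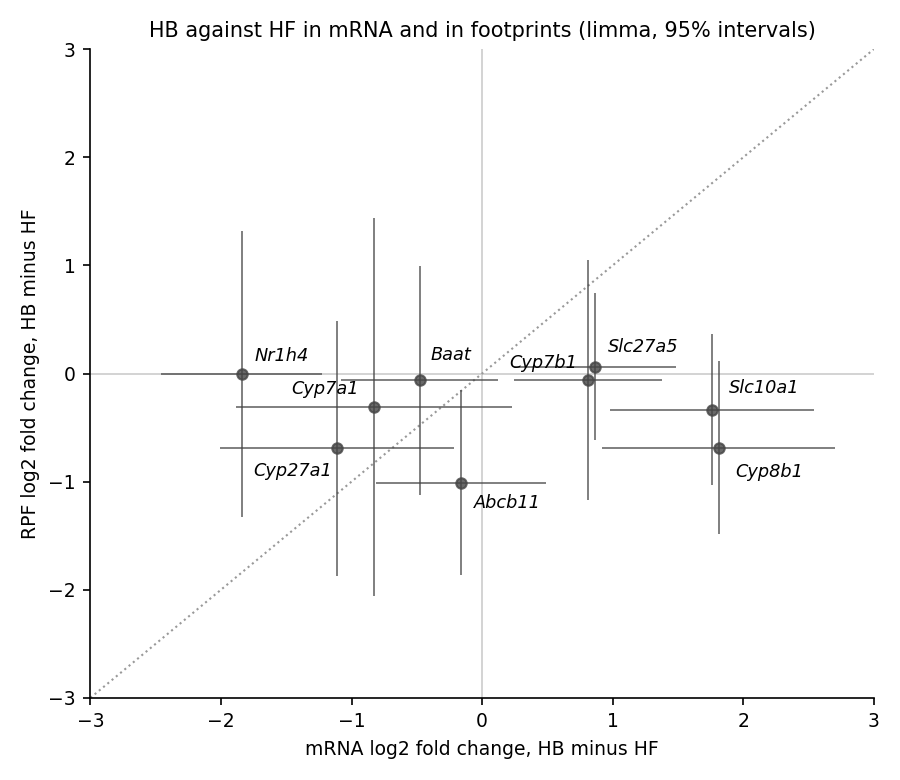
Log2 fold change of HB against HF in mRNA (horizontal axis) and in RPFs (vertical axis) for the 9 members with a fold change in both, with 95% intervals from limma as lines and the dotted line marking equal change. The mRNA changes run from -1.84 (Nr1h4) to 1.81 (Cyp8b1), while the RPF changes run from -1.01 (Abcb11) to 0.06 (Slc27a5).

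TE was the RPF value over the mRNA value of the libraries with the same group and number. At a log2 change beyond 2 and p under 0.05, the thresholds of the study for TE, 0 members were called higher and 2, Cyp8b1 and Slc10a1, were called lower. The same rule called 1.49% of 9455 tested genes higher and 4.6% lower (141 and 435 genes, but 42 and 1332 with a common sum and 259 and 253 with a common median). The groups did not overlap for 1 member with higher HB values (Nr1h4) and 5 with lower ones (Cyp8b1, Cyp7b1, Slc27a5, Slc10a1 and Abcb11), against 14% and 31.7% of all tested genes. The median log2 change was -0.19 in the members and -0.35 over all genes. At an adjusted p under 0.05 limma called 0 members and 0 genes, with 3 members and 1154 genes at an unadjusted p under 0.05, and an interaction of assay and group without the library numbers called 0 members and 1 gene.

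Slc10a1 had TE of 3.10 and 2.13 in HF and 0.470 and 0.755 in HB. Both HB ratios lay far below both HF ratios, and the log2 change was -2.10 (SE 0.56, 95% interval -3.47 to -0.73), with a limma p of 0.00944 and an adjusted p of 0.334. The change was past the fold threshold by little, and the call was lost without HF1 (-1.83), without HF2 (-2.37), without HB1 (-1.76) and with a common median (-1.78). Cyp8b1 had TE of 0.922 and 2.09 in HF and 0.387 and 0.149 in HB, again without overlap. Its log2 change was -2.50 (SE 0.80, 95% interval -4.46 to -0.54), with a limma p of 0.0205 and an adjusted p of 0.364, and the call was lost without HF2 (-1.92) and without HB2 (-1.81).

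Nr1h4 went the other way, with TE of 0.221 and 0.256 in HF and 0.627 and 1.18 in HB. Both HB ratios were higher, and the log2 change was 1.84 (95% interval 0.10 to 3.57, limma p of 0.0410 and adjusted p of 0.399), under the fold threshold of 2 for TE. It was called with a common median (2.16) but was 1.02 with a common sum. With a library left out it ran from 1.39 without HB2 to 2.28 without HB1. Its limma p was 0.0678 with the replicate block and 0.0697 with crossed numbers. Slc27a5 had 1.67 and 1.29 in HF and 0.836 and 0.847 in HB, and Cyp7b1 had 2.53 and 1.60 in HF and 0.876 and 1.30 in HB. Their log2 changes of -0.80 (95% interval -2.09 to 0.49) and -0.87 (95% interval -2.20 to 0.45) did not pass although the libraries did not overlap. Abcb11 had 1.06 and 1.18 in HF and 0.418 and 0.905 in HB, with a log2 change of -0.85 (95% interval -2.41 to 0.71). Cyp7a1 (0.281 and 2.55 in HF, 2.25 and 0.703 in HB), Cyp27a1 (0.104 and 0.361 in HF, 0.429 and 0.156 in HB) and Baat (0.484 and 0.583 in HF, 0.452 and 1.11 in HB) overlapped between groups. Their log2 changes were 0.52 (95% interval -2.18 to 3.21), 0.42 (-2.11 to 2.95) and 0.41 (-1.33 to 2.15), and all 3 were below 0 with a common sum. Nr0b2 had TE of 0 in HF1 and HB1, where no footprint was seen, and 0.354 and 0.763 in HF2 and HB2. TE contains the mRNA value as its denominator, so the TE and mRNA changes of a gene are not independent.

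The other genes of the pathway were taken from 3 lists that were compiled by role. Earlier results of these data were known when the lists were made, so their counts are descriptive. Of the 16 other synthesis enzymes 15 were tested in mRNA, and at the adjusted threshold 3 were higher and 1 lower (5.01% and 12.7% of all tested genes), with a median log2 fold change of 0.23. Akr1c6, an aldo-keto reductase of the steroid and bile acid pathway, rose from 106 and 196 RPKM in HF to 696 and 394 RPKM in HB (log2 1.85, limma adjusted p = 0.00931). Abcd3, the peroxisomal carrier of branched-chain and bile acid precursors, rose from 60.3 and 52.3 RPKM in HF to 188 and 100.0 RPKM in HB (log2 1.28, limma adjusted p = 0.0197). Acaa1b, a peroxisomal thiolase, rose from 914 and 1392 RPKM to 2082 and 2889 RPKM (log2 1.12, limma adjusted p = 0.0365). Cyp46a1, the cholesterol 24-hydroxylase, fell from 21.8 and 39.9 RPKM in HF to 6.37 and 7.57 RPKM in HB (log2 -1.94, limma adjusted p = 0.00526). Reads of Akr1c6, Acaa1b and Slco1a4 may be shared with close relatives, so their values are uncertain.

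Of the 16 other genes of transport and detoxification 13 were tested in mRNA, 1 was higher and 2 lower at the adjusted threshold, close to the 5.01% and 12.7% of all tested genes, and the median was -0.13. Ephx1, the microsomal epoxide hydrolase, rose from 88.8 and 124 RPKM in HF to 238 and 311 RPKM in HB (log2 1.37, limma adjusted p = 0.0105). Slco1a4, an organic anion transporter of the sinusoidal membrane, fell from 33.3 and 30.0 RPKM to 13.8 and 5.34 RPKM (log2 -1.75, limma adjusted p = 0.0105). Abcg5, which with Abcg8 exports sterols into bile, fell from 85.7 and 140.5 RPKM in HF to 59.5 and 48.1 RPKM in HB (log2 -1.02, limma adjusted p = 0.0330).

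Of the 17 other regulators 15 were tested in mRNA, 0 were higher and 3 lower at the adjusted threshold (5.01% and 12.7% of all tested genes), and 7 had an unadjusted p under 0.05, a rule that 40.5% of all tested genes met. Of the 15, 14 had a log2 fold change below 0, as had 60.2% of all tested genes, and the median was -0.57, lower than the -0.19 of all tested genes. Prox1, a transcription factor that represses Cyp7a1 expression, fell from 11.4 and 12.7 RPKM in HF to 2.68 and 4.43 RPKM in HB (log2 -1.55, limma adjusted p = 0.00666). Nr1i2, the pregnane X receptor, which also senses bile acids, fell from 133 and 129 RPKM to 44.9 and 67.2 RPKM (log2 -1.23, limma adjusted p = 0.0128). Nr1i3, the constitutive androstane receptor, fell from 260.0 and 333 RPKM to 67.3 and 159 RPKM (log2 -1.50, limma adjusted p = 0.0203). At p under 0.001, 1 regulator (Prox1) was called lower (6.56% of all tested genes), as by voom, but 0 were called in either direction with a common median, where Slco1a4 was not called either.

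In RPFs the 3 lists had 1 call, lower (7.86% of all tested genes), in Cyp39a1, the oxysterol 7-alpha-hydroxylase of the 24-hydroxycholesterol branch. Its values of 12.0 and 10.7 RPKM in HF and 1.29 and 4.67 RPKM in HB correspond to 14, 34, 1 and 2 reads. Both HB values were under 3 reads, so no fold change is given and the call is not read as a difference. By voom 1 synthesis enzyme and 1 gene of transport and detoxification were called lower, where it called 5.88% of all tested genes lower. In TE 0 genes of the lists were called, with 3 synthesis enzymes and 0 genes of the other 2 lists at an unadjusted p under 0.05 by limma (12.2% of all tested genes) and 4 of 15, 1 of 13 and 1 of 15 by the interaction model (15.8% of all tested genes).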

How the data were processed

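RNA-seq (polyadenylated mRNA) and Ribo-seq (RPFs) were made from liver. The authors aligned both with FANSe2 (mm10), and the deposited unit is RPKM by gene, 1 file a library. The processing notes also name edgeR, which needs counts and was not used here. The counted region and the use of strand are not given in the sources used here. Reads were recovered from the RPKM step of 1 read on GENCODE M21 genes. A length giving whole reads within 0.01 read was found for 95.6% of RNA-seq and 93.6% of Ribo-seq values. Lengths were picked to give whole reads, so these shares are no check of the recovery. The length behind a member's RPKM was taken as an annotated transcript length where that gave whole reads (Cyp8b1, Cyp7b1 and, in RNA-seq, Cyp7a1). Otherwise the Ribo-seq length was that of RNA-seq where it gave whole reads (Cyp27a1, Slc27a5, Baat and Nr0b2). Failing both, it was the smallest length near the annotated ones that did. These lengths exceed the coding length and differ between assays for Cyp7a1, Slc10a1, Abcb11 and Nr1h4, which cancels in HB against HF. The 4 RNA-seq entries whose symbol was repeated were dropped.

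log2(RPKM + 1) was fitted per assay with limma 3.58.1 (R 4.3.3, intensity trend, two-sided, Benjamini-Hochberg over all tested genes). TE was fitted with 1 RPKM added to each term, while printed TE values carry no constant. The code was tested on simulated data. Alternatives were another pseudocount (0.1), another filter (none, or a mean RPKM of 5), other scalings, no trend, a replicate block, left-out libraries, voom, an assay interaction and crossed numbers. All members are named, and from each pathway list the genes called in mRNA at either rule (at most 4 per direction) or in RPFs or TE (at most 2). Members and lists were chosen with earlier results of these data known, and AGGTCA and the within-library ratios after values were seen. Another promoter motif that was searched is not reported here. Coordinates are GRCm38 (mm10).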

Additional observations from a re-analysis of the deposited data

Results flagged for a closer look

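For 3 members the change in RPFs differed from the change in mRNA in an interaction of assay and group, fitted with limma over 9455 genes without using the library numbers. It was -2.50 for Cyp8b1 (SE 0.62, limma p of 0.00478 and adjusted p of 0.139), -2.10 for Slc10a1 (SE 0.50, limma p of 0.00389 and adjusted p of 0.133) and 1.84 for Nr1h4 (SE 0.62, limma p of 0.0196 and adjusted p of 0.223), all on the log2 scale. The 3 were picked out at an unadjusted p under 0.05, and at an adjusted p under 0.05 the interaction called 0 of the 10 members. Over all 9455 genes 15.8% had an unadjusted p under 0.05 in that model. At the deposited scale Cyp8b1 and Slc10a1 were higher in HB mRNA and lower in HB footprints in 2 of 2 libraries each. With a common median their footprint changes were -0.36 and -0.01. Nr1h4 was lower in mRNA in 2 of 2 libraries and on both sides of HF in footprints. The 2 HB Ribo-seq libraries were the smallest, with 257086 and 141890 reads, and the part of depth in these differences was not tested.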

How the results depend on the processing

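Of 28 member values with a fit, 19 kept their direction in every alternative run. Of 345 alternative values, 23 reversed. The number of members called in mRNA was 2, and it was 1 without the filter and 3 to 5 with a library left out (5 without HF2). At the adjusted threshold it was 4, and 0 without the filter and 3 to 7 with a library left out, highest without HB2. The pathway lists had 5 calls in mRNA, 0 without the filter and 4 to 8 with a library left out (8 without HB2). Members called in RPFs were 1, and 3 with a common sum, 0 with a common median, 0 without the trend and 0 to 1 with a library left out (0 without HF1 and without HF2, Cyp27a1 in place of Abcb11 without HB1). Members called in TE were 2, and 0 to 3 with a library left out (1 without HF1, 0 without HF2, 1 without HB2, and 3 without HB1, among them Nr1h4 and also Nr0b2, whose 4 reads in HB2 and 0 in HF1 give no usable ratio). With a common median they were Cyp8b1 and Nr1h4. With a common median Abcb11 mRNA reversed to 0.11, and in RPFs Cyp7a1 reversed to 0.02, Cyp7b1 to 0.26, Baat to 0.26 and Nr1h4 to 0.32. With a common sum Slc27a5 RPFs reversed to -0.81 and the TE of Cyp7a1 to -0.26, of Cyp27a1 to -0.40 and of Baat to -0.41. With a library left out, the ranges that crossed 0 were -0.49 to 0.18 for Abcb11 mRNA, -1.18 to 0.56, -0.48 to 0.35, -0.08 to 0.21, -0.49 to 0.36 and -0.66 to 0.65 for RPFs of Cyp7a1, Cyp7b1, Slc27a5, Baat and Nr1h4, and -1.0 to 2.03, -0.47 to 1.31 and -0.23 to 1.05 for the TE of Cyp7a1, Cyp27a1 and Baat. The cause was not tested. With the replicate block, 4 members and 10 pathway genes were called in mRNA. Deviations of same-numbered libraries correlated at -0.10 in mRNA and -0.01 in RPFs, and those of mRNA with RPFs at -0.0024 in HF and -0.077 in HB, so the numbers are no evidence of shared samples. The TE per library still pairs assays by number, and crossed numbers and the unpaired interaction called the same 2 members, Cyp8b1 and Slc10a1. A pseudocount of 0.1 and a mean RPKM of at least 5 changed no direction or call of a member. voom called 438 RPF genes higher and 657 lower. Leaving a library out leaves 1 in that group, which is assumed to vary like the other group. In mRNA the fits without an HF library and with the replicate block rest almost wholly on the spread shared across genes. Calls gained in them are therefore not read as results. Footprint depth limits every RPF and TE value.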
